A study of Sus scrofa with 3 samples.

Results

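Proteasome subunit genes and genes of E2 ubiquitin-conjugating enzymes were described in liver RNA of 3 male pigs at postnatal day 90, with 1 library each from an Enshi black pig (a Chinese local breed), a Chinese wild boar and a Large White pig (a European commercial breed). Members were all Ensembl gene IDs in the deposited count tables whose pig symbol starts with PSMA to PSMG and a digit, or with UBE2. They were 47 of 25322 gene IDs, of which 29 carry a PSM symbol and 18 a UBE2 symbol. A further 29 IDs with such symbols had no row in these tables and were not analysed here, among them PSMA2, PSMB4, PSMC4, PSMD2, UBE2B and UBE2D3. Of the members, 42 were expressed, with at least 1 CPM (the usual scaling of counts by the library's total) in at least 1 library: 24 proteasome genes, 17 E2 genes and PSMC3IP, whose symbol fits the pattern although it encodes a meiotic recombination factor.

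The proteasome is the protease that degrades most short-lived and damaged proteins of a cell. Its barrel-shaped 20S core has outer rings of alpha subunits that gate entry and inner rings of beta subunits that cut, and the 19S cap recognises, unfolds and feeds in proteins that carry ubiquitin. Ubiquitin is activated by an E1 enzyme, passed to the active cysteine of an E2 enzyme and placed on a target with the help of an E3 ligase, and the E2 largely sets which kind of chain is built. In liver this system turns over metabolic enzymes and disposes of secretory proteins that misfold in the endoplasmic reticulum.

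The libraries held 20654571 gene counts for Enshi black, 20215871 for Chinese wild boar and 19982627 for Large White. Levels below are CPM scaled with TMM factors, so that 1 count was worth 0.0463 CPM in Enshi black, 0.0505 in Chinese wild boar and 0.0512 in Large White. They are not corrected for transcript length and are compared between libraries for 1 gene, not between genes. A fold is the ratio of scaled counts of the first library named over the second, followed in parentheses by a 95% exact binomial interval. Each breed has a single library, so nothing was tested across animals. Breed, animal and library cannot be told apart, and intervals cover counting error only. The size rule used below asks that the bound of this interval nearest to 1 be at least 2 (higher) or at most 0.5 (lower). Of 9 hepatocyte markers, 8 had a row and all 8 were expressed, with summed levels of 105667 CPM in Enshi black, 103361 in Chinese wild boar and 77843 in Large White. ALB carried much of that sum and passed as higher in Enshi black against Large White (2.63-fold), whereas 5 of the 8 lay lower there, with FGB (0.221) and APOC3 (0.452) past the rule. In bulk tissue, fewer cells of a type and less RNA per cell cannot be told apart.

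Most members differed little between the 3 livers, and those past the size rule were PSME1, a proteasome activator gene, and UBE2Z, an E2 gene. In Enshi black against Large White, 1 member passed as higher (PSME1) and 1 as lower (UBE2Z) among 42, where 4.69% of all 13228 expressed genes passed as higher and 8.39% as lower. In Chinese wild boar against Large White no member passed in either direction, where 2.96% of all expressed genes passed as higher and 3.74% as lower. None passed as higher and 1 as lower (UBE2Z) in Enshi black against Chinese wild boar, where 4.03% and 7.1% of all expressed genes did. These 3 comparisons share libraries and are not independent of each other. If animals of a breed are taken to vary with a coefficient of 0.2 beside the counting error, no member passed in any comparison. Fewer of all 13228 expressed genes passed then too, with 277 higher and 661 lower in Enshi black against Large White, so few of 42 genes would pass in any case.

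**Figure D1:**
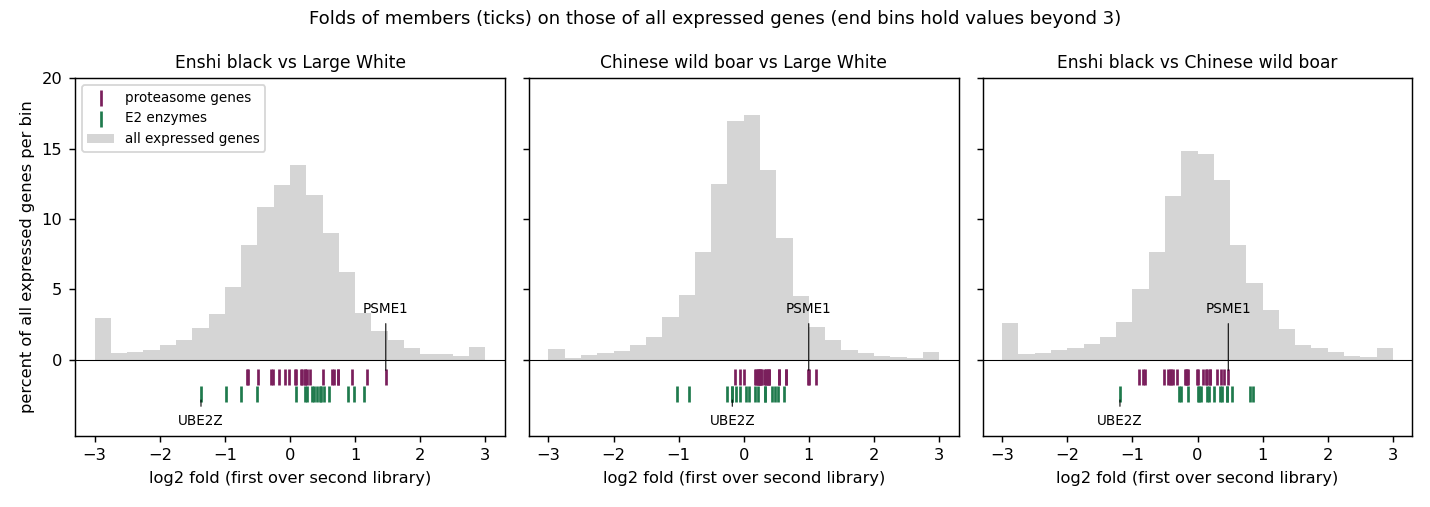
Log2 fold of each expressed member in the 3 comparisons, drawn as ticks (24 proteasome genes in the upper row, 17 E2 genes in the lower row), under a histogram of the log2 folds of all 13228 expressed genes in percent per bin of 0.25. PSME1 lies at the upper end of the proteasome ticks at 1.47 in Enshi black against Large White, and UBE2Z at the lower end of the E2 ticks at -1.37 and -1.19 in the panels with Enshi black on top.

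The widest fold between any 2 of the 3 libraries had a median of 1.44 over the 42 members and ran from 1.05 for PSMC3IP to 2.77 for PSME1. Over the 13022 expressed genes with counts in all 3 libraries that median was 1.68, and over the 8096 such genes with at least 10 CPM in a library it was 1.57. The widest fold lay under 2 for 36 of 42 members (85.7%), against 66.0% of those expressed genes and 74.3% of those with at least 10 CPM.

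As a group, the 24 proteasome genes lay above Large White in the Chinese wild boar library. Their median log2 fold was 0.32 there, with 21 of 24 above 0, while over all expressed genes the median was 0.00 and 50.1% lay above 0. In Enshi black against Large White the median was 0.21 with 16 of 24 above 0, beside 0.01 and 50.6% for all expressed genes. It was -0.16 with 10 of 24 above 0 in Enshi black against Chinese wild boar, beside 0.01 and 50.4%. The median over the 17 E2 genes was 0.37 in Enshi black against Large White, with 13 of 17 above 0. It was 0.08 in Chinese wild boar against Large White, with 10 of 17 above 0, and 0.18 in Enshi black against Chinese wild boar, with 13 of 17 above 0.

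Gene length moved with these values. Of the 40 expressed members with a gene span in RefSeq, 30 were in the 5 shortest of 10 equal groups of genes by span, and in Enshi black the shorter groups ran lower: in Enshi black against Chinese wild boar the median log2 fold was -0.18 in the shortest group and 0.23 in the longest. When each gene was set against the median of its own span group, the proteasome median in that comparison was -0.01 in place of -0.16. The same step gave 0.22 in Enshi black against Large White and 0.30 in Chinese wild boar against Large White. For the 15 E2 genes with a span it gave 0.22 in Enshi black against Large White, 0.05 in Chinese wild boar against Large White and 0.34 in Enshi black against Chinese wild boar, each over 1.5 times away from the uncorrected median.

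**Figure D2:**
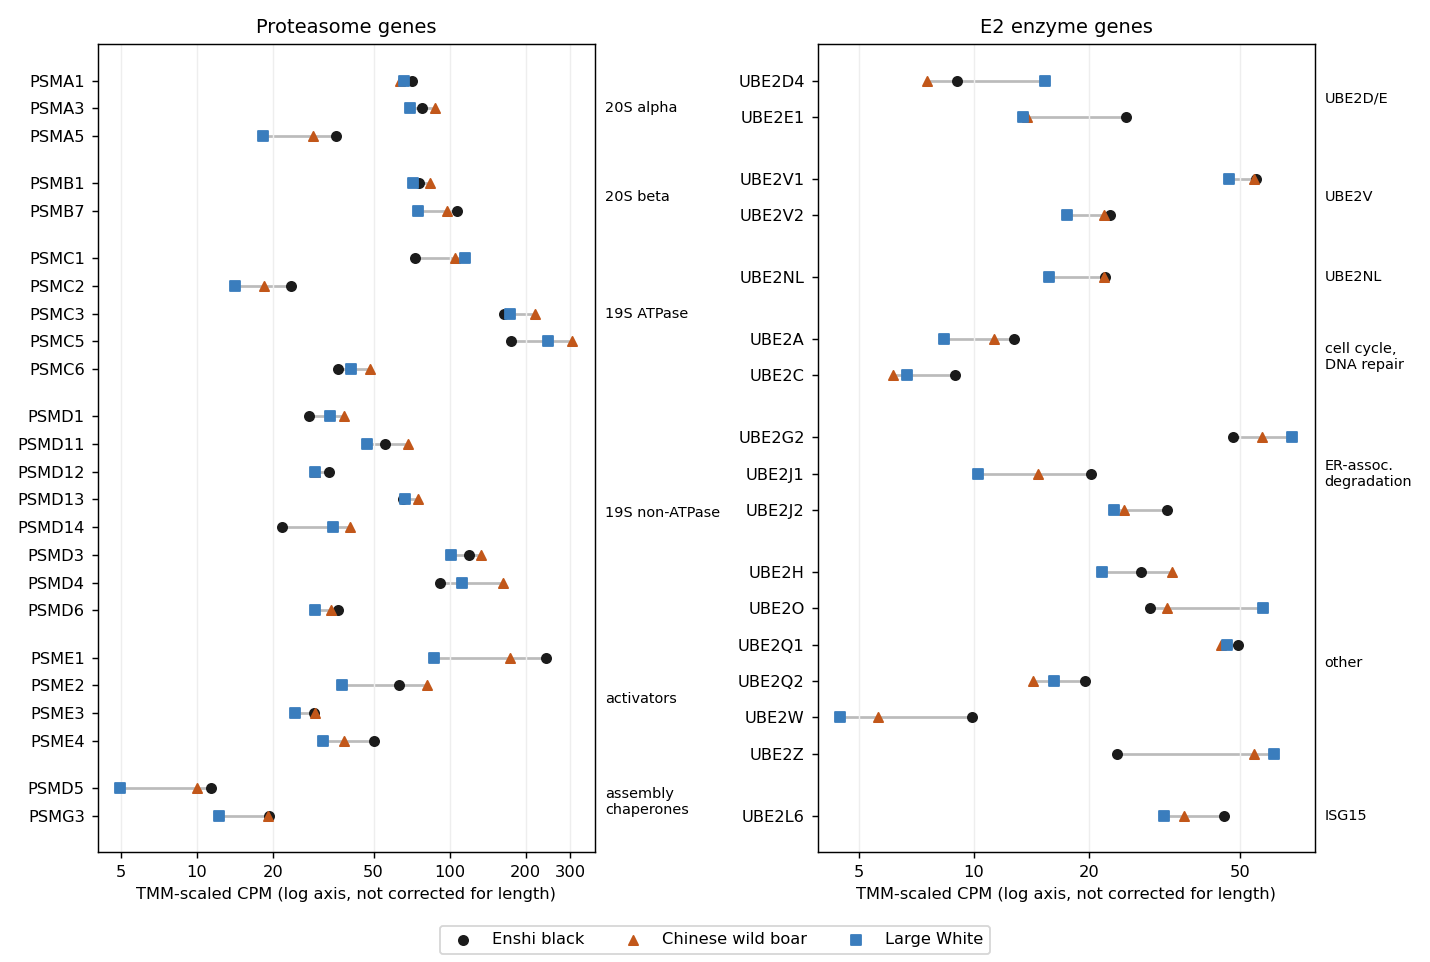
TMM-scaled CPM of the 24 expressed proteasome genes (left) and 17 expressed E2 genes (right) in the Enshi black (circle), Chinese wild boar (triangle) and Large White (square) libraries, on a log axis, with a line joining the 3 values of a gene. Most lines are short, while those of PSME1, PSME2, PSMD5, UBE2D4, UBE2W and UBE2Z span more than 2-fold.

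Alpha subunits form the gated outer rings of the core. PSMA1 had 70.7 CPM in Enshi black, 63.8 in Chinese wild boar and 66.1 in Large White, and its widest fold between libraries was 1.11. PSMA3 had 77.6 CPM in Enshi black, 87.6 in Chinese wild boar and 69.4 in Large White. PSMA5 was less even, with 35.5 CPM in Enshi black, 28.8 in Chinese wild boar and 18.2 in Large White. Large White was the low library for this alpha subunit, at a fold of 1.95 (1.72 to 2.22) for Enshi black and 1.58 (1.38 to 1.81) for Chinese wild boar over it, and neither passed the size rule. PSMA8, a testis form of an alpha subunit, had no count in any library.

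Among beta subunits, PSMB7 carries the trypsin-like cutting site and PSMB1 is a structural subunit. PSMB7 had 107 CPM in Enshi black, 97.8 in Chinese wild boar and 74.7 in Large White. PSMB1 had 75.7 CPM in Enshi black, 83.9 in Chinese wild boar and 71.8 in Large White, a widest fold of 1.17. The PSMB7 fold of Enshi black over Large White was 1.43 (1.34 to 1.53) and did not pass. The subunits PSMB8 and PSMB9 replace standard cutting subunits in the immunoproteasome of interferon-exposed and immune cells, and both lie in the MHC region. PSMB9 had 8 counts in Enshi black, 9 in Chinese wild boar and 5 in Large White, below the expression filter in each. PSMB8 had no count in any library, nor did the thymus form PSMB11, which for each of these allows up to 0.139 CPM in Enshi black, 0.152 in Chinese wild boar and 0.154 in Large White, taking 3 counts as the floor. TAP1, a peptide transporter gene of the same region, had 1 count in Enshi black, 0 in Chinese wild boar and 0 in Large White. The immunoproteasome could not be compared between the livers from these rows, and whether depth or the annotation set these counts was not tested.

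The ATPase ring of the 19S cap, encoded by the PSMC genes, unfolds substrates. PSMC5 had 174 CPM in Enshi black, 306 in Chinese wild boar and 246 in Large White. PSMC1 had 73.0 CPM in Enshi black, 105 in Chinese wild boar and 115 in Large White. PSMC3 had 164 CPM in Enshi black, 219 in Chinese wild boar and 173 in Large White, and PSMC6 had 36.2 CPM in Enshi black, 48.6 in Chinese wild boar and 40.7 in Large White. Enshi black was the lowest library for these 4 ATPase genes with TMM scaling. However, the PSMC3 fold of Enshi black over Large White, 0.947 with TMM, turned above 1 under 2 alternatives. It was 1.01 under total counts and 1.04 when set against the median of its span group. PSMC2 was instead highest in Enshi black, with 23.6 CPM in Enshi black, 18.4 in Chinese wild boar and 14.2 in Large White. The fold of Enshi black over Chinese wild boar was 0.57 (0.547 to 0.594) for PSMC5 and 1.28 (1.12 to 1.47) for PSMC2. None of the 5 ATPase genes passed the size rule in any comparison, and PSMC1 and PSMC5 each overlap another gene in RefSeq, which makes their counts uncertain. PSMC3IP, the recombination factor, had 3.24 CPM in Enshi black, 3.29 in Chinese wild boar and 3.12 in Large White.

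The other 19S subunits hold the cap together, bind ubiquitin or remove it. PSMD4, a ubiquitin receptor, had 91.4 CPM in Enshi black, 163 in Chinese wild boar and 112 in Large White. PSMD14, the enzyme that cuts ubiquitin off before a substrate enters, had 21.8 CPM in Enshi black, 40.5 in Chinese wild boar and 34.5 in Large White. Both were lowest in Enshi black, at folds against Chinese wild boar of 0.56 (0.529 to 0.593) for PSMD4 and 0.538 (0.479 to 0.604) for PSMD14. The scaffold subunit PSMD1 followed the same order with 27.8 CPM in Enshi black, 38.3 in Chinese wild boar and 33.5 in Large White.

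The other 5 subunits are among those of the lid of the cap and do not make up all of it. PSMD11 had 55.3 CPM in Enshi black, 68.7 in Chinese wild boar and 47.1 in Large White, and PSMD3 had 119 CPM in Enshi black, 134 in Chinese wild boar and 102 in Large White. PSMD6 had 36.2 CPM in Enshi black, 34.0 in Chinese wild boar and 29.2 in Large White, PSMD12 had 33.4 CPM in Enshi black, 29.3 in Chinese wild boar and 29.3 in Large White, and PSMD13 had 65.6 CPM in Enshi black, 75.002 in Chinese wild boar and 66.4 in Large White. The folds of these 5 genes between any libraries lay under 1.5. Across all 8 such subunits, none passed in any comparison, and 7 of 8 lay above 0 on the log2 scale in Chinese wild boar against Large White.

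Activators dock on the core in place of the 19S cap and open it without need of ubiquitin. PSME1 and PSME2 encode the alpha and beta chains of PA28, a ring that interferon gamma induces and that favours peptides for MHC class I. PSME1 (ENSSSCG00000002006) had 240.2 CPM in Enshi black, 173 in Chinese wild boar and 86.6 in Large White; the counts were 5184 in Enshi black, 3425 in Chinese wild boar and 1693 in Large White. Its fold over Large White was 2.77 (2.62 to 2.93) for Enshi black, which passed, and 2.0 (1.88 to 2.12) for Chinese wild boar, which did not. PSME2 had 62.9 CPM in Enshi black, 81.7 in Chinese wild boar and 37.6 in Large White. Large White was the lowest library for both chains, and the highest was Enshi black for PSME1 but Chinese wild boar for PSME2. PSME2 was at 2.17-fold (1.99 to 2.37) in Chinese wild boar over Large White, just short of the rule. PSME3, the nuclear homologue PA28 gamma, had 29.1 CPM in Enshi black, 29.3 in Chinese wild boar and 24.4 in Large White. PSME4, the large activator PA200, had 50.4 CPM in Enshi black, 38.0 in Chinese wild boar and 31.6 in Large White. All 4 activator genes lay above Large White in both other libraries, and PSME1 alone passed.

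The PSME1 call ended when all counts of an overlapping gene were added to it. In RefSeq annotation of Sscrofa11.1, PSME1 overlaps EMC9, a gene of an endoplasmic reticulum membrane complex, and EMC9 had 15.1 CPM in Enshi black, 24.1 in Chinese wild boar and 35.2 in Large White. EMC9 thus ran in the opposite order to PSME1. With the counts of both summed, the fold of Enshi black over Large White was 2.096 with a lower bound just under the rule (1.997 to 2.20), and that of Chinese wild boar over Large White 1.62 (1.54 to 1.70). The sum adds every count of a gene that ran the opposite way, which narrows the fold. It therefore cannot show whether reads of the shared stretch bear on the call. The strand setting of the counting is not given in the sources used here, so reads of PSME1 and EMC9 in their shared stretch cannot be told apart.

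**Figure D3:**
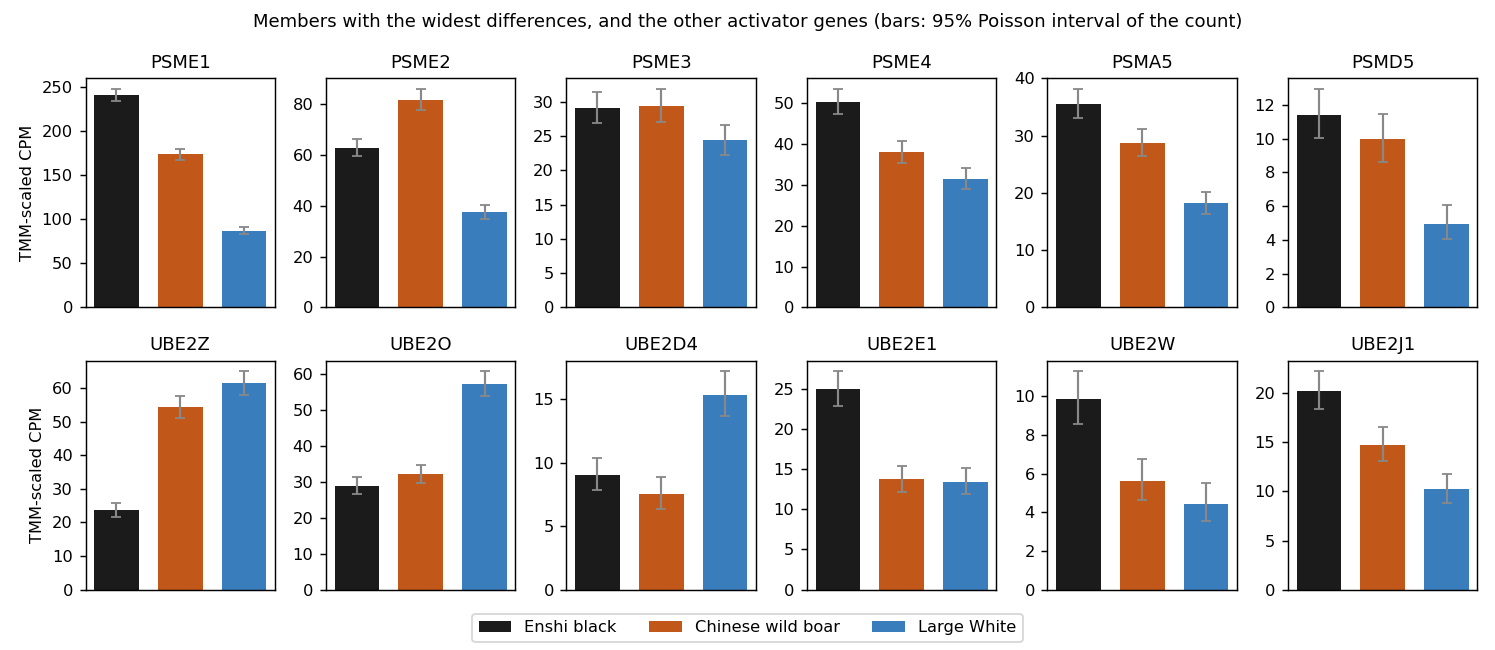
TMM-scaled CPM of 12 members in the Enshi black, Chinese wild boar and Large White libraries, with 95% Poisson intervals of the count as error bars and 1 library per bar. PSME1 has its high bar in Enshi black at 240.2 CPM, whereas UBE2Z has its low bar in Enshi black at 23.7 CPM.

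Assembly chaperones help subunits join and then leave. PSMD5, a chaperone of the ATPase ring, had 11.4 CPM in Enshi black, 9.96 in Chinese wild boar and 4.96 in Large White. PSMG3, which helps to build the alpha ring, had 19.2 CPM in Enshi black, 19.1 in Chinese wild boar and 12.2 in Large White. Both had Large White as the low library with the other pair close together. The PSMD5 fold over Large White was 2.30 (1.81 to 2.94) for Enshi black and 2.01 (1.56 to 2.58) for Chinese wild boar, and it did not pass in either.

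Ratios between partner genes within a library do not depend on library scaling, and 9 such pairs were set after the values had been seen. PSME1 had 3.82 counts per PSME2 count in Enshi black (3.60 to 4.06), against 2.12 (2.0 to 2.25) in Chinese wild boar and 2.30 (2.11 to 2.52) in Large White. The interval of Enshi black thus lay apart from the others for the PA28 chains, with the overlap of PSME1 and EMC9 as above. PSMC2 had 0.135 counts per PSMC5 count in Enshi black (0.123 to 0.148), against 0.0601 (0.054 to 0.0669) in Chinese wild boar and 0.0576 (0.0509 to 0.0651) in Large White. The products of these ATPase genes sit in the same ring in equal number. Their RNA proportion thus differed between the Enshi black library and the others by more than counting error, in a pair picked for its values. PSMC5 overlaps FTSJ3, which had 68.0 CPM in Enshi black, 122 in Chinese wild boar and 86.3 in Large White. FTSJ3 ran in the same order as PSMC5, which leaves this ratio uncertain. The other ATPase pair did not set Enshi black apart: PSMC1 per PSMC5 was 0.419 (0.394 to 0.444) in Enshi black, between 0.343 (0.326 to 0.36) in Chinese wild boar and 0.466 (0.443 to 0.49) in Large White. PSMA5 per PSMA1 was 0.502 (0.46 to 0.548) in Enshi black and 0.451 (0.408 to 0.498) in Chinese wild boar, against 0.276 (0.245 to 0.31) in Large White.

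**Figure D4:**
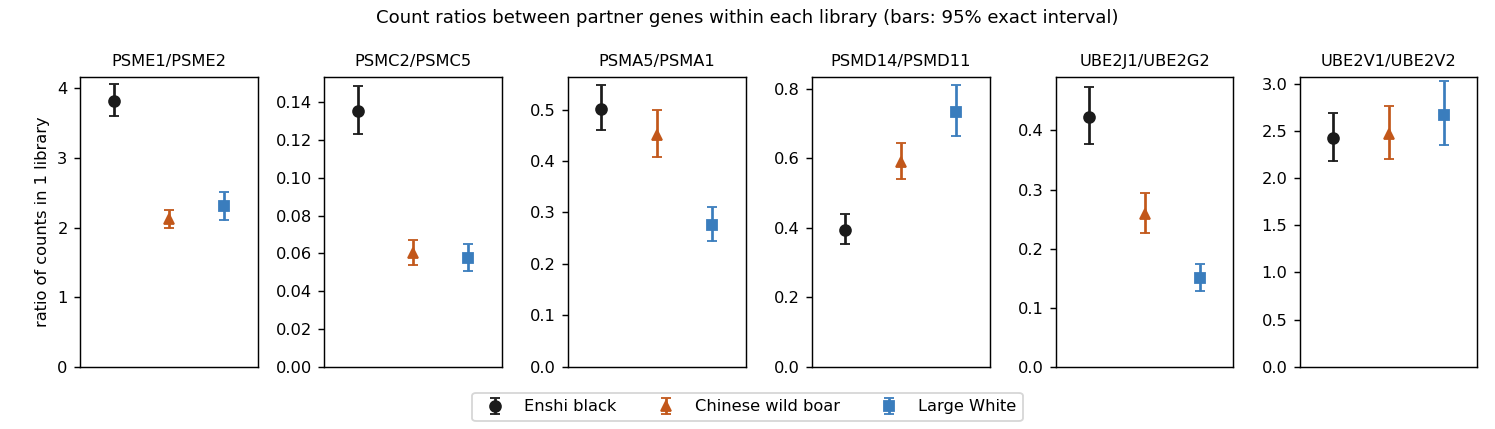
Ratio of counts between 6 pairs of partner genes within the Enshi black, Chinese wild boar and Large White libraries, with 95% exact intervals. The pairs were set after the values had been seen, and the other pairs set then are not drawn. The interval of Enshi black lies apart from both others for PSME1/PSME2 (3.82), PSMC2/PSMC5 (0.135), PSMD14/PSMD11 (0.394) and UBE2J1/UBE2G2 (0.423). For PSMA5/PSMA1 it overlaps that of Chinese wild boar, and the 3 intervals of UBE2V1/UBE2V2 overlap.

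Summed over its 28 IDs, the proteasome set took 1701 CPM in Enshi black, 1992 in Chinese wild boar and 1540 in Large White. Of these counts the ATPase genes made up 27.7% (27.2 to 28.1, exact binomial interval) in Enshi black, 34.9% (34.5 to 35.4) in Chinese wild boar and 38.2% (37.7 to 38.8) in Large White. The activator genes made up 22.5% (22.1 to 22.9) in Enshi black, 16.2% (15.8 to 16.5) in Chinese wild boar and 11.7% (11.3 to 12.1) in Large White. These shares have a common total, so a larger activator share lowers the ATPase share. The ATPase genes' own levels followed their share only in part. With TMM scaling 4 of 5 were lowest in Enshi black, where the share was lowest too. However, 4 of 5 were higher in Chinese wild boar than in Large White, against the order of the share. With the overlap with EMC9 as above, PSME1 alone held 14.1% of the proteasome counts in Enshi black, 8.69% in Chinese wild boar and 5.63% in Large White. The E2 genes as a sum were nearly level, at 459 CPM in Enshi black, 453 in Chinese wild boar and 464 in Large White.

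Among E2 enzymes, UBE2Z charges ubiquitin and the ubiquitin-like protein FAT10, for which it works with the E1 enzyme UBA6. UBE2Z (ENSSSCG00000025638) had 23.7 CPM in Enshi black, 54.3 in Chinese wild boar and 61.4 in Large White; the counts were 512 in Enshi black, 1074 in Chinese wild boar and 1199 in Large White. Enshi black was the low library, with a fold of 0.387 (0.348 to 0.429) against Large White and 0.437 (0.393 to 0.486) against Chinese wild boar, and both passed. The call against Chinese wild boar ended under total counts, at 0.467 (0.419 to 0.519), and under the span correction, also at 0.467 (0.42 to 0.52). UBD, the gene of FAT10, had 135 CPM in Enshi black, 12.1 in Chinese wild boar and 43.3 in Large White. Its fold was 3.12 (2.89 to 3.37) for Enshi black and 0.279 (0.24 to 0.322) for Chinese wild boar over Large White, so FAT10 RNA passed in opposite directions in these livers. UBA6 did not pass, at 5.19 CPM in Enshi black, 3.54 in Chinese wild boar and 5.32 in Large White.

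UBE2L6 is the E2 of ISG15, another ubiquitin-like protein that interferon induces. It had 45.1 CPM in Enshi black, 35.5 in Chinese wild boar and 31.5 in Large White, a fold of 1.43 (1.29 to 1.59) for Enshi black over Large White. UBA7, the E1 of the same pathway, had 28.3 CPM in Enshi black, 25.8 in Chinese wild boar and 25.1 in Large White. Neither gene of ISG15 transfer passed.

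Large White was the high library for UBE2O and UBE2D4, as it was for UBE2Z and UBE2G2. UBE2O, an E2 that also acts as its own ligase and clears orphan proteins, had 29.0 CPM in Enshi black, 32.1 in Chinese wild boar and 57.4 in Large White. UBE2D4, a member of the broadly acting UBE2D family, had 9.04 CPM in Enshi black, 7.53 in Chinese wild boar and 15.4 in Large White. UBE2O had a fold of 0.505 (0.457 to 0.557) for Enshi black and 0.559 (0.507 to 0.617) for Chinese wild boar over Large White. UBE2D4 had a fold of 0.589 (0.489 to 0.707) for Enshi black and 0.49 (0.4 to 0.599) for Chinese wild boar over Large White, and neither gene passed.

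Enshi black was the high library for others. UBE2E1 had 25.02 CPM in Enshi black, 13.7 in Chinese wild boar and 13.5 in Large White, a fold of 1.86 (1.6 to 2.16) over Large White. UBE2W, which adds ubiquitin to the N-terminus of proteins, had 9.87 CPM in Enshi black, 5.61 in Chinese wild boar and 4.45 in Large White, a fold of 2.22 (1.72 to 2.88). UBE2Q2 had 19.6 CPM in Enshi black, 14.3 in Chinese wild boar and 16.2 in Large White and UBE2Q1 49.2 CPM in Enshi black, 44.3 in Chinese wild boar and 46.0 in Large White. None of these passed, and UBE2Q1 was the most even E2 gene, with a widest fold of 1.11.

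The E2 enzymes of endoplasmic reticulum-associated degradation, the route that returns misfolded secretory proteins to the proteasome, differed in their order of libraries. UBE2J1, anchored in the membrane, had 20.2 CPM in Enshi black, 14.8 in Chinese wild boar and 10.24 in Large White. UBE2G2, a soluble enzyme of the same route, had 47.9 CPM in Enshi black, 57.1 in Chinese wild boar and 68.3 in Large White. The orders of these genes were opposite, and UBE2J1 per UBE2G2 count was 0.423 (0.377 to 0.473) in Enshi black, 0.259 (0.227 to 0.294) in Chinese wild boar and 0.15 (0.128 to 0.174) in Large White. UBE2J2, the other anchored enzyme, had 32.2 CPM in Enshi black, 24.7 in Chinese wild boar and 23.3 in Large White. None of these 3 passed. Of 8 expressed partner genes of this route, SEL1L alone passed, with 108 CPM in Enshi black, 50.1 in Chinese wild boar and 65.4 in Large White and a fold of 2.16 (2.0 to 2.32) for Enshi black over Chinese wild boar. Its lower bound only just met the rule, and the call ended under the span correction.

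UBE2V1 and UBE2V2 lack the active cysteine and direct their partner UBE2N to build ubiquitin chains that mostly signal rather than mark for degradation. UBE2V1 had 54.9 CPM in Enshi black, 54.2 in Chinese wild boar and 46.6 in Large White, and UBE2V2 had 22.7 CPM in Enshi black, 22.0 in Chinese wild boar and 17.5 in Large White. The gene with the symbol UBE2NL had 22.0 CPM in Enshi black, 22.0 in Chinese wild boar and 15.8 in Large White. The 3 genes shared 1 pattern, with Enshi black and Chinese wild boar level and Large White below, and none passed. UBE2H, the E2 of the CTLH ligase, had 27.3 CPM in Enshi black, 33.2 in Chinese wild boar and 21.6 in Large White.

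UBE2C drives mitotic exit with the anaphase-promoting complex, and UBE2A marks histones and replication forks. UBE2C had 8.90 CPM in Enshi black, 6.12 in Chinese wild boar and 6.65 in Large White, a fold of 1.34 (1.06 to 1.68) for Enshi black over Large White. UBE2A had 12.7 CPM in Enshi black, 11.3 in Chinese wild boar and 8.34 in Large White, and UBE2T, the E2 of the Fanconi anaemia pathway, had 1 count in Enshi black, 5 in Chinese wild boar and 0 in Large White. Of 7 expressed markers of proliferating cells, 4 passed as higher in Enshi black against Large White, with summed levels of 153 CPM in Enshi black, 45.4 in Chinese wild boar and 62.0 in Large White and no marker with a row at 0. UBE2C lay in the same direction at a smaller fold and did not pass, and their part in its level was not tested.

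With the lower bar of an interval bound 1.5-fold from 1, 7 members were higher in Enshi black against Large White (PSME1, PSME2, PSMA5, PSMD5, UBE2E1, UBE2J1 and UBE2W) and 2 lower (UBE2Z and UBE2O), where 11.6% and 14.9% of all expressed genes passed that bar. In Chinese wild boar against Large White, 3 were higher (PSME1, PSME2 and PSMD5) and 2 lower (UBE2D4 and UBE2O), beside 7.4% and 8.63%. In Enshi black against Chinese wild boar, 1 was higher (UBE2E1) and 4 lower (PSMC5, PSMD4, PSMD14 and UBE2Z), beside 9.85% and 12.6%. At this bar too, the members' share was near or below that of all genes in each comparison and direction, save 7 of 42 higher in Enshi black against Large White.

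Genes around the members were taken from lists. Of 7 expressed E1 and E1-like genes none passed in any comparison, and UBA1, the main ubiquitin E1, had 177 CPM in Enshi black, 214 in Chinese wild boar and 216 in Large White. Of 5 expressed ubiquitin and ubiquitin-like genes only UBD passed, and polyubiquitin UBB had 1036 CPM in Enshi black, 1242 in Chinese wild boar and 1005 in Large White. Of 14 other proteasome-bound and assembly factors, 1 passed as lower in Enshi black against either library (ZFAND5) and 1 as higher in Chinese wild boar against Large White (UBQLN1). UBQLN1, a shuttle that carries ubiquitinated proteins, was 2.22-fold (2.13 to 2.33) higher in Chinese wild boar than in Large White. ZFAND5, an activator of the 26S particle, had 1.25 CPM in Enshi black, 17.5 in Chinese wild boar and 22.6 in Large White.

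Values of regulators of proteasome genes were as follows. NFE2L1, the factor that raises subunit genes when the proteasome is impaired, had 55.7 CPM in Enshi black, 72.7 in Chinese wild boar and 62.3 in Large White. NFE2L2, the oxidative stress factor, had 92.9 CPM in Enshi black, 82.3 in Chinese wild boar and 51.7 in Large White, and neither passed. IRF1, an interferon factor that drives immunoproteasome and PA28 genes, had 62.1 CPM in Enshi black, 27.5 in Chinese wild boar and 134 in Large White. It was highest in the library with the least PSME1 and PSME2, with folds of 0.464 (0.434 to 0.496) for Enshi black and 0.206 (0.187 to 0.226) for Chinese wild boar over Large White.

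Values of interferon genes and leukocyte markers stood beside those of the PA28 genes as follows. Of 11 expressed genes of MHC class I processing and interferon response, 3 passed as higher (TAP2, IFI44 and USP18) and 1 as lower (IRF1) in Enshi black against Large White, and 2 as higher (TAP2 and MX1) and 1 as lower (IRF1) in Chinese wild boar against Large White. MX1 had 194 CPM in Enshi black, 215 in Chinese wild boar and 94.4 in Large White, and TAP2, a peptide transporter for MHC class I, had 5.70 CPM in Enshi black, 5.10 in Chinese wild boar and 1.33 in Large White. Both had their low value in Large White, the low library for PSME1 and PSME2. The 6 leukocyte markers with a row, of 10, summed to 309 CPM in Enshi black, 143 in Chinese wild boar and 329 in Large White, and the 5 Kupffer and macrophage markers with a row, of 9, to 640.2 CPM in Enshi black, 675 in Chinese wild boar and 787 in Large White, with none at 0. C1QA carried the macrophage sum at near level, while 3 of the 5 passed as lower in Enshi black against Large White (MARCO at 0.252, CSF1R at 0.14 and LYZ at 0.15) and MARCO also in Chinese wild boar against Large White (0.34). The 4 stellate cell and fibroblast markers with a row, of 5, summed to 978 CPM in Enshi black, 483 in Chinese wild boar and 272 in Large White, the same order as PSME1, and the 3 expressed ones all passed as higher in Enshi black over Large White, where the fourth, LUM, was at 0. Leukocyte markers did not differ in 1 direction between Enshi black and Large White, with 3 of 6 above 0 and CD79B past the rule as higher (5.48-fold). In Chinese wild boar 3 of 6 passed as lower than in Large White (PTPRC, CD8A and LCP1). The part of any of these cell classes in the PA28 values was not tested.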

How the data were processed

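The deposited files hold whole-number read counts per Ensembl gene ID, 1 table for each of 3 liver libraries. Build Sscrofa10.2, edgeR 3.16.3, HTSeq 0.6.1 and TopHat2 2.1.0 are listed, with no role, per the submitters' processing notes. The annotation release, strand setting and handling of multiply aligned reads were not given in the sources used here. Rows that name no gene were left out. Reads with no feature made up 19.0%, 18.9% and 22.0%, and ambiguous reads 1.89%, 2.49% and 2.18%, of Enshi black, Chinese wild boar and Large White.

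Symbols came from a table of gene IDs (11804 matched). Genes with at least 1 CPM in a library were kept (13228), and TMM factors were computed on them with edgeR 4.0.16 in R 4.3.3 (1.04, 0.979 and 0.978 in that order). Intervals are exact conditional binomial (Clopper-Pearson), from Python 3.11.15 with scipy 1.17.1. Median log2 folds carry a prior count of 2. No molecular identifiers are described. The size rule and intervals were tested on simulated counts with counting error alone, which cannot show how they hold when animals vary. Gene spans and overlaps came from RefSeq (Sscrofa11.1), matched by symbol and used for names and groups only; 10 of 45 matched members overlap another gene there (PSME1, PSMC1, PSMC3IP, PSMC5, PSMA3, PSMD1, PSMD6, PSMD14, UBE2A and UBE2V1) and are uncertain, as are genes with near-identical copies such as UBE2V1, UBE2NL and UBE2D4.

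The members, lists and pairs were chosen with earlier results of these data known. The rule for named genes took members past the size rule, members with 3 counts or fewer in 1 library and at least 5 CPM in both others (none), the 2 of highest mean CPM and the 2 of widest fold per role, and, from the other lists, up to 4 genes per list past the size rule. The other expressed members, EMC9, C1QA, LUM, TAP1, UBA1, UBA6, UBA7, UBB, NFE2L1 and NFE2L2 were named after their values were seen, as were the ratio pairs and the sum of PSME1 and EMC9. Alternatives were DESeq2 1.42.0 size factors, total counts, other filters, bounds and intervals, an assumed variation between animals, and a span correction. Some genes of the lists are not reported here.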

Additional observations from a re-analysis of the deposited data

How the results depend on the processing

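No paired analysis was possible because each breed has 1 library, which also leaves no replicate to leave out. The 6 medians of proteasome and E2 genes kept their sign under every alternative tried for them, though the span correction moved the 3 E2 medians, and the proteasome median in Enshi black against Chinese wild boar, by over 1.5 times. Other alternatives moved medians that far too. In Enshi black against Chinese wild boar, total counts gave -0.06 in place of -0.16 for proteasome genes and 0.27 in place of 0.18 for E2 genes. In Enshi black against Large White, the mean over E2 genes was 0.19, beside a median of 0.37. Total counts put the median over all expressed genes at 0.10 (log2) in both comparisons with Enshi black on top. DESeq2 size factors and the absence of a filter moved no count by over 1.5 times.

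Counts are given as higher and lower. For members, a bound of 1.5-fold gave 7 and 2 in Enshi black against Large White. It gave 3 and 2 in Chinese wild boar against Large White. In Enshi black against Chinese wild boar it gave 1 and 4. A bound of 4-fold, and animals taken to vary with a coefficient of 0.2 or 0.4, each gave 0 and 0 in every comparison. UBE2Z in Enshi black against Chinese wild boar was also lost, leaving 0 lower, under total counts, a wider binomial interval and the span correction. PSME1 in Enshi black against Large White was lost when summed with EMC9, an alternative chosen after seeing the data.

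For all expressed genes in Enshi black against Large White, the 1.5-fold bound gave 1531 and 1972, the 4-fold bound 150 and 444, a variation of 0.2 gave 277 and 661 and of 0.4 127 and 405. The 10 CPM filter gave 352 and 638, the span correction 327 and 536, and the wider interval 406 higher. In Chinese wild boar against Large White these gave 979 and 1141, 87 and 114, 160 and 228, 75 and 103, then 275 lower with the filter, 212 and 273 with the span correction, and 306 lower with the wider interval. In Enshi black against Chinese wild boar they gave 1303 and 1673, 117 and 390, 252 and 573, 112 and 364, then 276 and 544 with the filter, 284 and 419 with the span correction, and 315 higher with the wider interval. The filter and the span correction cover fewer genes by construction, 8136 and 8310. At 9 counts or fewer in each library, UBE2T, PSMB8, PSMB9, PSMB11 and PSMA8 could not be compared.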
